A study of Mus musculus with 6 samples.

Results

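The accessible chromatin of the Polo-like kinase genes Plk1, Plk2, Plk3 and Plk4 was examined in leukaemia cells by ATAC-seq. In this assay a transposase cuts open DNA and tags it with adapters, so the number of tags in a region measures how open it is. Members were the peaks that the deposited annotation assigned to 1 of these genes and whose centre lay at most 100000 bp from its transcription start site (TSS). The rule gave 29 peaks of the 175929 in the table, 5 for Plk1, 7 for Plk2, 14 for Plk3 and 3 for Plk4. No measured value entered the rule, but the members were chosen with earlier results of these data known. Another 2 peaks named for Plk2, at 166265 and 169039 bp, lay beyond the limit.

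All 6 libraries came from mouse leukaemia cells of genotype Usp18+/f UBCER-Cre that expressed AE9a, a truncated AML1/ETO fusion protein delivered by a GFP-marked retrovirus. The cells thus shared 1 floxed allele of Usp18, which encodes a protease that removes ISG15 and restrains interferon signalling. The Cre recombinase, driven by the ubiquitously active ubiquitin C promoter, was fused to an oestrogen receptor domain that tamoxifen activates. Ill recipient mice received oil (replicates 1, 2 and 4, Usp18+/f) or tamoxifen (replicates 1, 3 and 4, to give Usp18+/Δ). Per the study's methods the mice were young adults of both sexes. For its RNA assay those methods name several mice in each group and 1 set of sorted cells shared with ATAC-seq. Its replicate statement for ATAC-seq gives a lower number, and the labels tie no library to a mouse. Lin- c-Kit+ GFP cells were isolated by sorting from the spleen, 3 days after injections began. Because the oil group received no tamoxifen, the drug and the loss of the allele cannot be told apart, and p-values measure only the spread between these libraries.

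Polo-like kinases are serine/threonine kinases, and Plk1 docks through its polo box onto substrates that are already phosphorylated. Plk1 drives mitotic entry, centrosome maturation, spindle assembly and cytokinesis, and is studied as a drug target in acute myeloid leukaemia. Plk4 starts centriole duplication. Plk2 and Plk3 are immediate early and stress-response kinases, and Plk2 is a known target of p53 that also acts at centrioles and at synapses. The study followed Plk2 as an interferon-stimulated gene of an atypical kind. In its mouse leukaemia cells it reported no detectable ATAC-seq difference at Plk2, but more of the histone mark H3K27ac at its promoter or enhancer. The question here was whether the open chromatin of Plk2 and its relatives differed between the tamoxifen and oil groups, by peak and by sum.

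Stretches of mm10 sequence are shown because the results below turn on them. They are the pair of Plk2 peaks with an unadjusted p under 0.05, the central 250 bp of the Plk3 peak that passed the test, and the 250 bases upstream of the RefSeq start of Plk2. Capitals mark matches on either strand to the motifs named below, except the TTTC element on its own, and all are written on the plus strand.
Plk2 -10348 bp peak, chr13:110384575-110384818: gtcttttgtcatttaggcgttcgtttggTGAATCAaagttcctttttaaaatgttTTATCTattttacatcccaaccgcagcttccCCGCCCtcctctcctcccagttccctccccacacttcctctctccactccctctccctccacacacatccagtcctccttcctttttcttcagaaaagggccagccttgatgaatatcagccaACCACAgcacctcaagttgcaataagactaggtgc
Plk2 -648 bp peak, chr13:110394252-110394541: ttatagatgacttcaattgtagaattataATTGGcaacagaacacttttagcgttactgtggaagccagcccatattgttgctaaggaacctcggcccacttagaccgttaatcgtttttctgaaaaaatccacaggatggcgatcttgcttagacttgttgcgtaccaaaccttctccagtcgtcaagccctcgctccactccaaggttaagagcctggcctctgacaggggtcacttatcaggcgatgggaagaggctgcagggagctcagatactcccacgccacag
Plk3 +3496 bp peak, centre, chr4:117130343-117130592: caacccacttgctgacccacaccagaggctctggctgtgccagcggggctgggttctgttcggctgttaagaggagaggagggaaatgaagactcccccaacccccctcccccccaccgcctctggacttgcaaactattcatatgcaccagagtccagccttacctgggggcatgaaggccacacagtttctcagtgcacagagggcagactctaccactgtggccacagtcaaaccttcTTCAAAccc
Plk2 upstream, chr13:110394794-110395043: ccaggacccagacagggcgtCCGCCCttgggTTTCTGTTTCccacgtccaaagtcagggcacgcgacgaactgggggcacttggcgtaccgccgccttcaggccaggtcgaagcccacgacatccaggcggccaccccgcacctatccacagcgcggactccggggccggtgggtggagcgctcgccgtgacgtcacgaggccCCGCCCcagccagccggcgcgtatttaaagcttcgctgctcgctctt

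Apart from the TTTC element described below, the 244 bp of the Plk2 -10348 peak held 1 match each to AP-1 (TGANTCA), the motif of GATA factors (AGATAA), RUNX (TGTGGT) and SP/KLF (GGGCGG). These letters occurred in 7.94%, 17.5%, 22.1% and 15.6% of 175738 windows of 250 bp centred on all peaks. The deposited annotation placed the centre of this peak in a LINE repeat of the L1 family (Lx5c). Again apart from the TTTC element, the Plk2 -648 peak held a single match, to CCAAT (26.1% of windows). The centre of the Plk3 peak held 1, to the CHR element (TTTGAA, 14.9%). Upstream of Plk2, an interferon-stimulated response element (ISRE, TTTCNNTTTC, which contains the TTTC element by construction) stood at bases 219 to 210 before the start, chr13:110394825-110394834. It ended 4 bp short of the peak at the Plk2 start, and 3.04% of 27025 RefSeq promoters held these letters in the same 250 bases. No other Plk promoter held an ISRE there. The same stretch of Plk2 held 2 matches to SP/KLF, which 32.9% of promoters held at least once. Among the windows of the 29 member peaks, 1 held an ISRE, that of the Plk2 +89514 peak, against 2.71% of all windows. The window of the Plk2 -94 peak began inside the ISRE upstream of Plk2, so that element was cut and not counted. NF-kB matches occurred in the windows of Plk3 -4417 and Plk4 +64 only (6.22% of all windows). None (0) matched p53 or E2F (TTTCCCGC or TTTGGCGC). Only 0.00797% and 0.624% of all windows matched these, so a count of 0 among the members says little about either. CCGGAA, the ETS core, occurred in Plk1 +310 and Plk4 +64 (6.36% of all windows). The minimal TTTC element was in 26 of the 29 windows and in 86.8% of all windows. A match says only that the letters are present.

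Libraries held 57.4 to 74.7 M tags in all, of which 17.5 to 21.1 M lay in peaks, and the median peak held 45.0 to 57.0 tags. Across all peaks, log2 normalised tags of the oil libraries correlated at 0.974 to 0.975 and those of tamoxifen replicates 1 and 3 at 0.968. Tamoxifen replicate 4 stood apart from its group, since it correlated with the oil libraries at 0.96 to 0.964 and with the other tamoxifen libraries at 0.949. Tamoxifen replicates 1 and 3 correlated with the oil libraries at 0.933 to 0.945, so replicate 4 was the closest of its group to oil. Results on the peaks named in full and on the gene sums are also given without replicate 4. The peak at the Usp18 start held 415 to 458 normalised tags after oil and 438 to 469 after tamoxifen, which does not check the deletion because the position of the floxed part is not given in the labels. Of 6 blast markers, 5 (Kit, Cd34, Runx1, Myb and Spi1) had a peak within 1000 bp of the start, and Ptprc had none. Mature myeloid markers Ly6g, S100a8, S100a9, Camp and Ltf had no such peak, nor did the T-cell markers Cd3e, Cd3d, Cd4 and Cd8a or the B-cell markers Cd79b, Pax5 and Ms4a1. All 6 erythroid markers had one, and their summed tags ran from 3452 to 3584 after oil and from 3202 to 3358 after tamoxifen. The peaks of the T-cell markers Cd3g and Lck summed to 181 to 225 after oil and 153 to 174 after tamoxifen. Other markers did have such a peak, namely Cd79a (B cell), Itgam and Cd14 (mature myeloid), and Col1a1 and Epcam (non-blood). Their summed tags overlapped between the groups. After oil they ran from 238 to 278 (B cell), 116 to 121 (mature myeloid) and 474 to 568 (non-blood). After tamoxifen they ran from 195 to 269, 103 to 131 and 530 to 569. Of the 13 blast-marker peaks, 1 had an adjusted p under 0.05 (DESeq2), where 1.22% of all peaks rose and 0.167% fell. The part of other cells in the results below was not tested, and in bulk libraries fewer open cells and less open chromatin per cell cannot be told apart.

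At the start sites, the 4 genes differed in level. Levels were compared per length, as normalised tags per kb (tags divided by the library's size factor and by peak width) in the peak nearest the start. Plk3 had 2410 ± 118 tags per kb after oil (SD, n = 3), Plk4 2163 ± 178, Plk1 1785 ± 67.5 and Plk2 595 ± 61.5. Over the 6 libraries Plk3 (2274 to 2667) and Plk4 (1994 to 2348) overlapped. Plk1 (1676 to 1838) lay below both, and Plk2 (535 to 790) lay below Plk1. Among 14458 genes with a peak within 1000 bp of the start, the level of Plk2 exceeded that of 32.4%, Plk1 of 54.4%, Plk4 of 66.4% and Plk3 of 73.7%. The G+C content of these peaks was 58.0% for Plk1, 68.8% for Plk2, 60.0% for Plk3 and 62.6% for Plk4, and its effect on tag numbers was not tested.

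**Figure D1:**
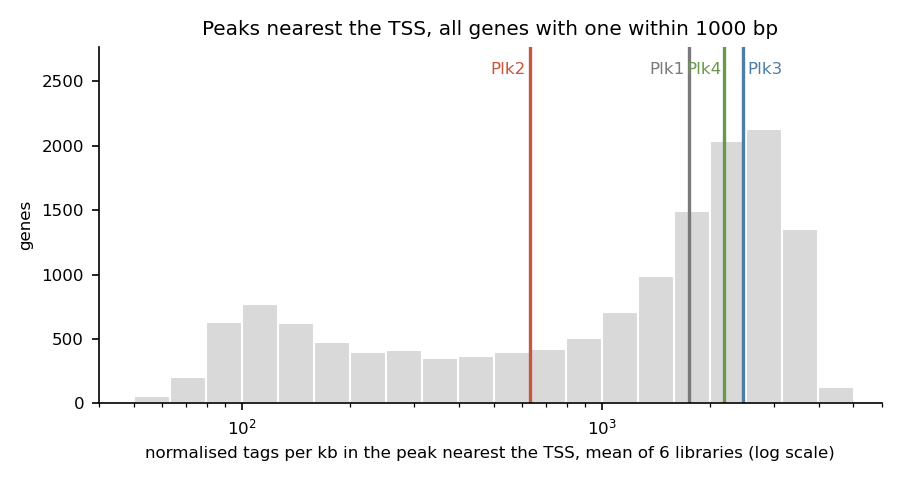
Normalised tags per kb in the peak nearest the TSS (mean of 6 libraries, log scale) for all 14458 genes with such a peak within 1000 bp, as a histogram of genes, with vertical lines at the 4 Polo-like kinase genes. Plk2 lies at 632 tags per kb, left of the median gene at 1560, and Plk1, Plk4 and Plk3 lie right of it.

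Of the 29 member peaks, 1 rose after tamoxifen at an adjusted p under 0.05 (DESeq2, Benjamini-Hochberg over all peaks), where 1.22% of all tested peaks did. None (0) fell, against 0.167% of all peaks, and edgeR called 2 higher and 0 lower, against 2.40% and 0.521% of all peaks by edgeR. An unadjusted p under 0.05 with more tags after tamoxifen was found at 3 member peaks and 6.18% of all peaks, and one with fewer tags at 0 member peaks and 2.84% of all peaks. The 3 tamoxifen values lay above the 3 oil values at 4 member peaks (11.9% of all peaks) and below them at 1 (10.0% of all peaks). The study's own limit of a fold change over 2 was met by no member (0). The median log2 fold change was 0.04 over the members and 0.00 over all peaks.

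**Figure D2:**
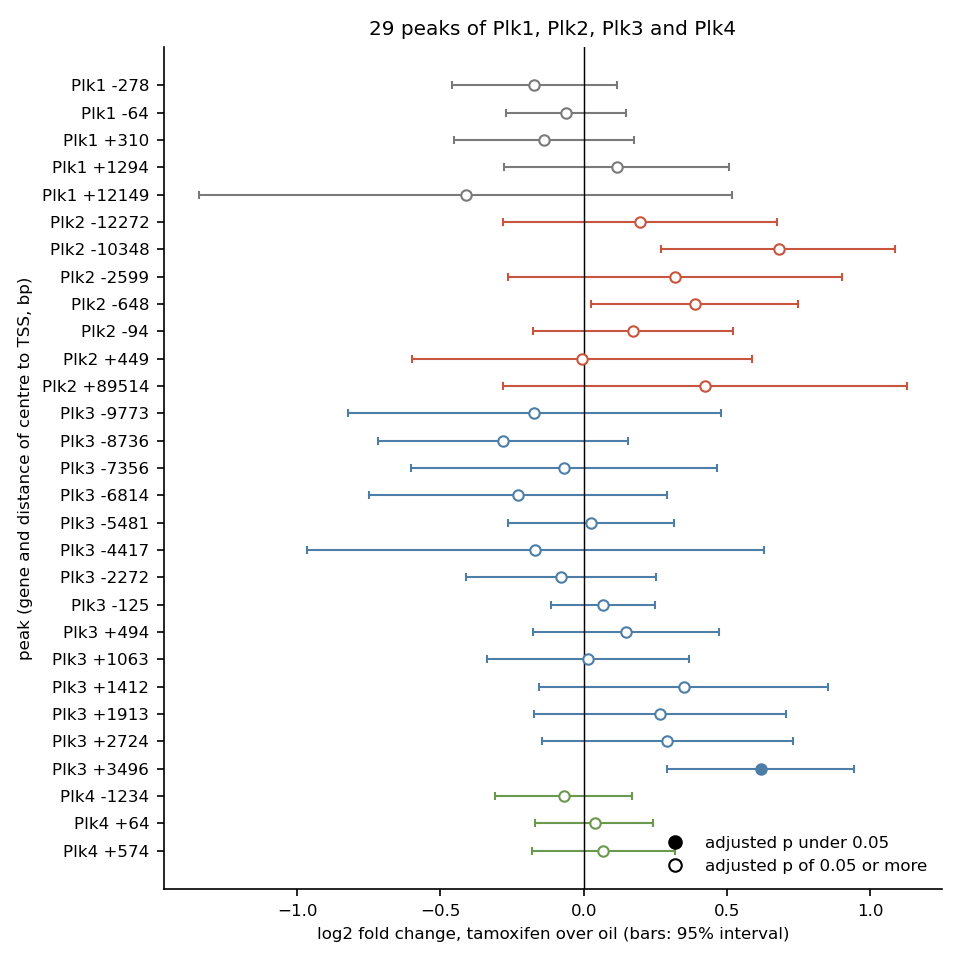
Log2 fold change of tamoxifen over oil for each of the 29 peaks (x axis), listed by gene and distance of the peak centre to the TSS (y axis), with 95% intervals. Only Plk3 +3496 is filled as past an adjusted p under 0.05, and 6 of the 7 Plk2 peaks lie right of 0.

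Plk2, the stress-response kinase, gained tags over its peaks as a sum. Summed over its 7 peaks, normalised tags were 460.1, 507.8 and 449.8 in oil replicates 1, 2 and 4 and 616.4, 539.9 and 584.1 in tamoxifen replicates 1, 3 and 4. All tamoxifen values lay above all oil values, and tamoxifen replicate 4 was not the lowest of its group. Such separation was found at 11.9% of single peaks, and its share among gene sums was not counted. The sum rose by a log2 fold change of 0.30 (SE 0.10, DESeq2 over 19781 genes, adjusted p = 0.0407), a 1.23-fold difference. By this test 4.98% of all gene sums rose and 1.02% fell, and none (0) of the 4 Plk sums fell, with 0 negative changes at an unadjusted p under 0.05 by DESeq2 and 1, that of Plk1, by edgeR (edgeR adjusted p = 0.194). Leaving out any 1 library kept the log2 fold change between 0.25 and 0.35, but most of these fits lost the call. The DESeq2 adjusted p was 0.289, 0.0763 and 0.304 without oil replicates 1, 2 and 4. It was 0.343 and 0.0678 without tamoxifen replicates 1 and 3, and 0.0364 without tamoxifen replicate 4. Neither part alone passed, with 0.459 for peaks within 3000 bp and 0.0715 for those beyond.

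Within Plk2, the peaks at -10348 and -648 bp had an unadjusted p under 0.05. The intergenic -10348 peak had 71.7, 66.3 and 66.3 normalised tags in oil replicates 1, 2 and 4 and 122.8, 110.3 and 94.0 in tamoxifen replicates 1, 3 and 4. The oil values were close together, and the tamoxifen values all lay higher, with replicate 4 lowest. Its log2 fold change was 0.68 (SE 0.21, 95% interval 0.27 to 1.09), which did not pass over all peaks (DESeq2 adjusted p = 0.0684). It passed with edgeR (adjusted p = 0.0203) and, with DESeq2, without tamoxifen replicate 4 (0.0192), whereas without 1 of the other libraries the adjusted p ran from 0.299 to 0.547.

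The -648 peak lay upstream of the gene and outside transcripts annotated by GENCODE. It had 104.2, 117.5 and 91.8 normalised tags after oil and 154.7, 121.4 and 131.3 after tamoxifen, in the same order of replicates. The groups did not overlap, although oil replicate 2 and tamoxifen replicate 3 differed little. The log2 fold change was 0.39 (SE 0.18, DESeq2 adjusted p = 0.479), and 0.42 without tamoxifen replicate 4.

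The peak at the Plk2 start, -94 bp, was the largest of the gene and spanned chr13:110394839-110395062, with 207 bp before the gene and 17 bp in its 5′ UTR. It had 125.8, 149.2 and 125.0 normalised tags after oil and 152.2, 119.8 and 176.9 after tamoxifen. Tamoxifen replicate 3 was the lowest of all libraries and replicate 4 the highest, so the groups overlapped. Its log2 fold change was 0.17 with a 95% interval of -0.17 to 0.52 (DESeq2 adjusted p = 0.907). It was 0.04 without tamoxifen replicate 4, 0.31 without tamoxifen replicate 3 and 0.26 without oil replicate 2, and did not pass in any of the 6 fits that left out a library. Of the other 4 peaks of Plk2, that at +89514 had non-overlapping groups, with 25.4, 19.0 and 24.6 normalised tags after oil and 28.5, 30.6 and 33.5 after tamoxifen (DESeq2 adjusted p = 0.858). The groups overlapped at -12272, -2599 and +449 (log2 fold changes 0.20, 0.32 and -0.01).

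**Figure D3:**
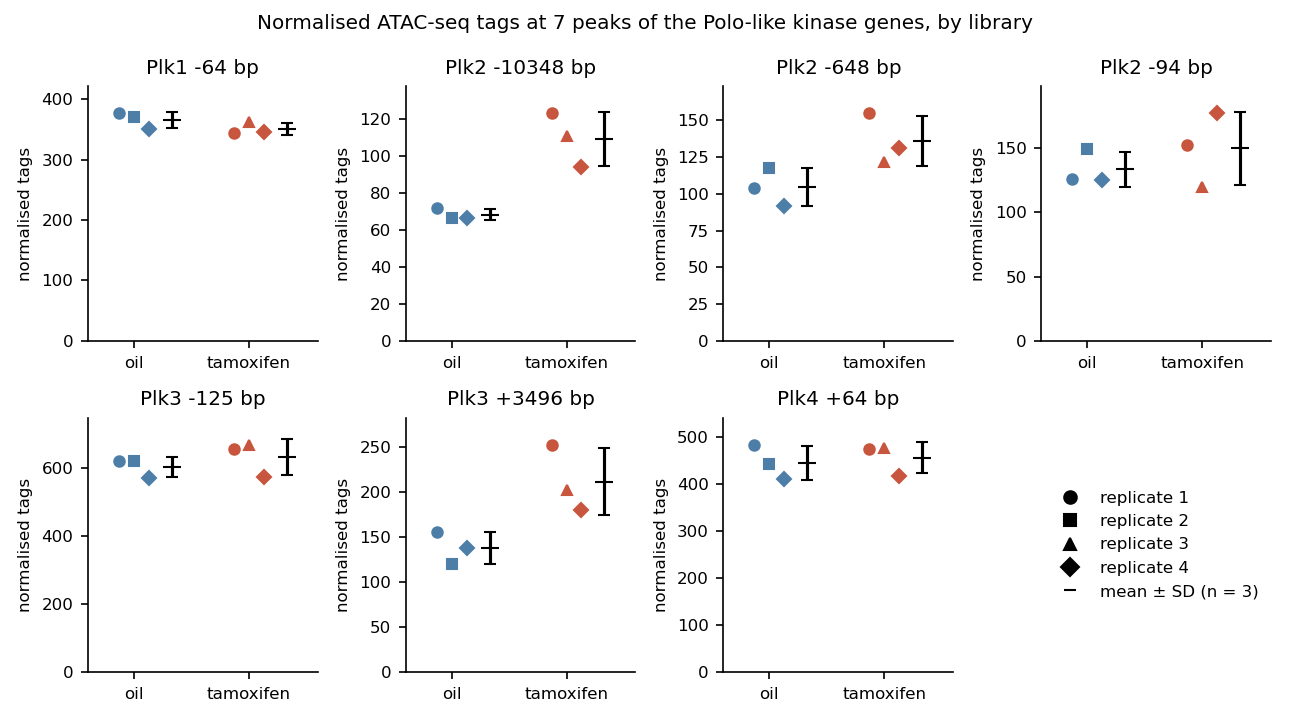
Normalised tags (y axis, from 0) at 7 peaks of the Polo-like kinase genes in oil and tamoxifen libraries. Symbols give the replicate number, and bars give the mean ± SD of 3 libraries. At Plk2 -10348, Plk2 -648 and Plk3 +3496 every tamoxifen value lies above every oil value, whereas the groups overlap at the other 4.

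Plk3, the other stress-response kinase, held the single member that rose. This peak, chr4:117129942-117130993, lay 3496 bp into the gene, toward its 3′ end. It was 1052 bp wide, with 471 bp of coding exon and 581 bp of intron by GENCODE, and ended 1204 bp from Tctex1d4, the next gene. Normalised tags were 155.5, 120.4 and 138.4 in oil replicates 1, 2 and 4 and 252.3, 202.2 and 179.7 in tamoxifen replicates 1, 3 and 4. Tamoxifen replicate 1 was highest, replicate 4 was the lowest of its group, and no value overlapped between groups. The log2 fold change was 0.62 (SE 0.17, 95% interval 0.29 to 0.94, DESeq2 adjusted p = 0.0213).

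This call also depended on the libraries. The DESeq2 adjusted p was 0.0611, 0.329 and 0.196 without oil replicates 1, 2 and 4, 0.454 and 0.13 without tamoxifen replicates 1 and 3, and 0.0018 without tamoxifen replicate 4. With peaks beyond 3000 bp fitted separately, as the study did, it was 0.0685.

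The peak at the Plk3 start, -125 bp (chr4:117133964-117134213), was the largest of all members. It had 618.3, 620.7 and 568.5 normalised tags after oil and 655.3, 666.8 and 571.7 after tamoxifen, and both number 4 libraries were the lowest of their groups. Its log2 fold change was 0.07 with a 95% interval of -0.12 to 0.25 (DESeq2 adjusted p = 0.953). Without tamoxifen replicate 4 it was 0.14 (DESeq2 adjusted p = 0.563). The 5 other peaks inside the gene, from +494 to +2724 bp, had log2 fold changes of 0.02 to 0.35, none with an unadjusted p under 0.05 (0 of 5 with DESeq2 and 0 of 5 with edgeR). The 7 other upstream peaks, from -9773 to -2272 bp, ran from -0.28 to 0.03. Among them, -6814 had 59.6, 55.1 and 52.9 normalised tags after oil and 52.7, 51.3 and 38.6 after tamoxifen, groups that did not overlap (DESeq2 adjusted p = 0.93). Of those 7 peaks, 5 had their centre in an annotated repeat. Summed over all 14 peaks, Plk3 had 1822.7, 1838.6 and 1821.5 normalised tags after oil and 2048.9, 1965.6 and 1745.1 after tamoxifen. Tamoxifen replicate 4 lay below every oil library and the other pair above them, and the log2 fold change was 0.07 (95% interval -0.06 to 0.20, DESeq2 adjusted p = 0.673). Without tamoxifen replicate 4 it was 0.14 (DESeq2 adjusted p = 0.105).

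Plk1, the mitotic kinase, had 5 peaks with log2 fold changes of -0.41 to 0.12, and their groups overlapped at each. The peak at its start, -64 bp (chr7:122159269-122159473), had 376.7, 370.6 and 350.3 normalised tags after oil and 343.6, 361.6 and 345.9 after tamoxifen. Its log2 fold change was -0.06 with a 95% interval of -0.27 to 0.15 (DESeq2 adjusted p = 0.97), and it was -0.05 without tamoxifen replicate 4. It also covered 133 bp of the transcript Gm15489, so tags there cannot be assigned to 1 gene. The peak at +12149 lay within the neighbouring gene Ern2 and held 7.24 to 38.2 normalised tags. The sum over the gene was 882.6, 824.5 and 871.5 after oil and 790.1, 762.9 and 830.8 after tamoxifen. Tamoxifen replicate 4 lay above oil replicate 2 and the others below all oil libraries. The log2 fold change was -0.11 (95% interval -0.27 to 0.04, DESeq2 adjusted p = 0.499), and -0.15 without tamoxifen replicate 4.

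Plk4, the centriole kinase, had 3 peaks, at -1234, +64 and +574 bp, with log2 fold changes of -0.07, 0.04 and 0.07. The peak at its start, chr3:40799913-40800118, had 483.7, 442.2 and 410.8 normalised tags after oil and 475.6, 476.3 and 418.1 after tamoxifen. The ranges overlapped almost fully, with a 95% interval of -0.17 to 0.24 for the log2 fold change (DESeq2 adjusted p = 0.987). Without tamoxifen replicate 4 this change was 0.10. Summed tags were 1027.9, 1030.3 and 1004.9 after oil and 1085.1, 1013.7 and 953.9 after tamoxifen, so the tamoxifen libraries lay on both sides of the oil libraries. The log2 fold change of the sum was 0.00 to 2 decimals (95% interval -0.15 to 0.14, DESeq2 adjusted p = 0.99), and its sign turned with the scaling and without tamoxifen replicate 4 (0.04).

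**Figure D4:**
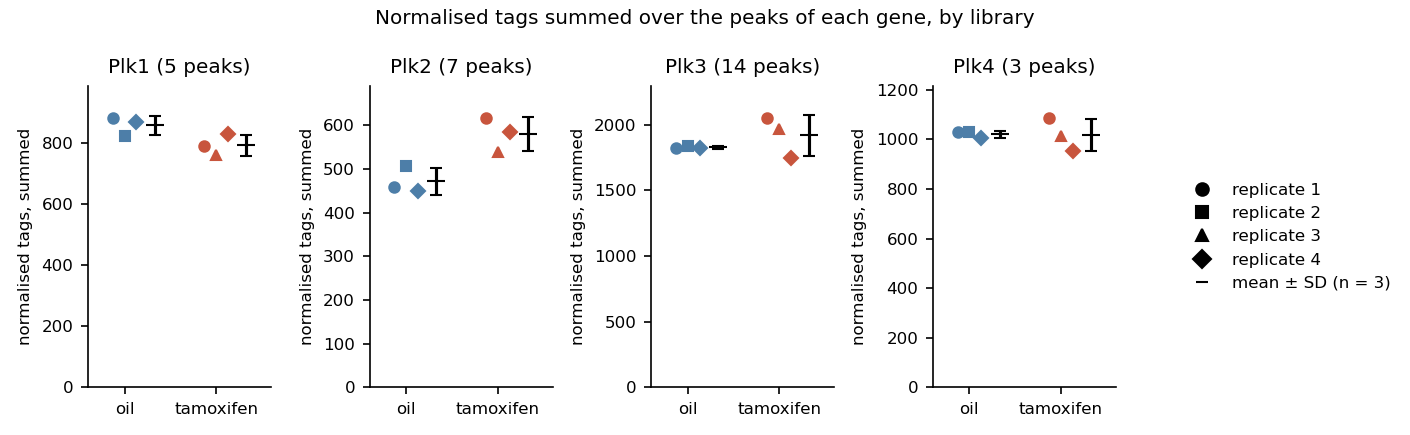
Normalised tags summed over the peaks of each gene (y axis, from 0) in the 3 oil and 3 tamoxifen libraries, with mean ± SD. The tamoxifen values of Plk2, 540 to 616, lie above the oil values of 450 to 508, and the groups overlap for Plk1, Plk3 and Plk4.

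By position, 18 members lay within 3000 bp of a start and 11 beyond. All 7 Plk2 peaks and all 3 Plk4 peaks were in the peak lists of both groups. Of the Plk1 peaks, -278 was in the tamoxifen list alone and +12149 in the oil list alone. Of the Plk3 peaks, -7356 was in the tamoxifen list alone and -8736 and -4417 in the oil list alone. Their groups overlapped at each of these 5 peaks, so being listed in 1 group did not go with separate tags.

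**Figure D5:**
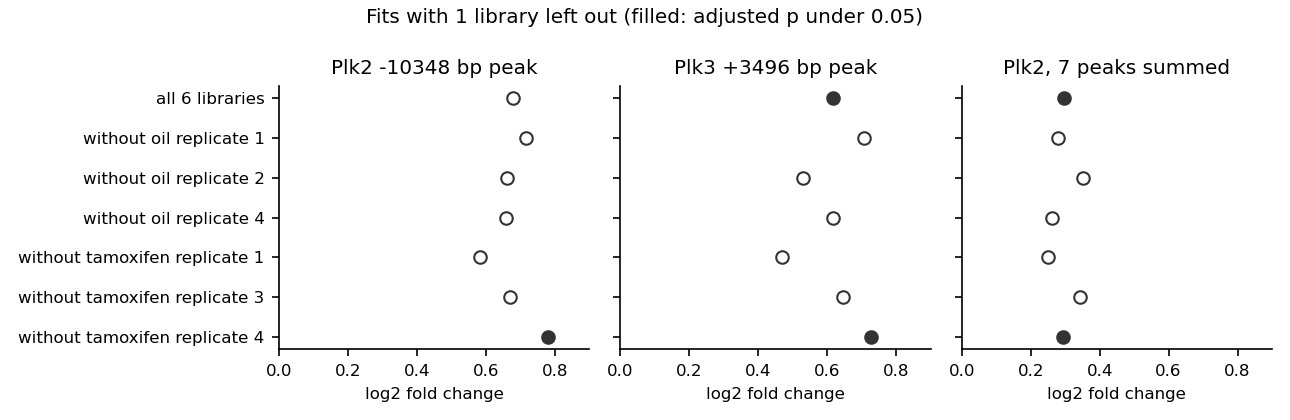
Log2 fold change of tamoxifen over oil (x axis) at the Plk2 -10348 peak, the Plk3 +3496 peak and the 7 Plk2 peaks summed, with all 6 libraries and without each in turn (y axis). Filled points have an adjusted p under 0.05, which in the left panel is only the fit without tamoxifen replicate 4. The log2 fold change stays between 0.25 and 0.78 in all 3 panels.

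The profile of Plk2 over the 6 libraries was compared with 13751 other genes that had at least 3 peaks and a mean sum of at least 200 tags. The Pearson correlation of log2 sums was highest for Slc41a1, a magnesium transporter gene (0.996), Shb (0.988), Gprc5b (0.986), Gm6559 (0.985) and Dusp14 (0.984). Slc41a1 had 403.2, 457.7 and 381.6 summed normalised tags after oil and 615.0, 500.6 and 543.5 after tamoxifen, the same order of libraries as Plk2. A value of at least 0.9 was reached by 1.53% of genes. With 6 points in 2 groups, these values describe likeness only. Plk3 correlated with Plk2 at 0.45, Plk4 at 0.13 and Plk1 at -0.73.

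Genes that work with the Polo-like kinases were read as lists. Of 151 peaks near 20 mitotic partners, such as Aurka, Ccnb1, Cdk1 and Cdc25c, 1 rose and 0 fell (DESeq2 over all peaks). At an unadjusted p under 0.05, 7 were higher and 7 lower, against 6.18% and 2.84% of all peaks. The peak that rose lay 16757 bp upstream of the start of Kif23, a kinesin of cytokinesis (chr9:61963406-61963707). The deposited annotation placed it in an intron of another transcript, so its tags cannot be assigned to Kif23 alone. It had 57.4, 61.9 and 64.1 normalised tags after oil and 111.6, 132.0 and 124.8 after tamoxifen (log2 fold change 1.00, SE 0.20, DESeq2 adjusted p = 0.000364). Of 110 peaks near 11 centriole genes, on which Plk4 acts or depends, 1 rose and 0 fell. It lay 56385 bp upstream of Btrc, which encodes a ubiquitin ligase subunit that targets Plk4 (log2 fold change 0.87, SE 0.25, DESeq2 adjusted p = 0.0471). These shares, 0.662% and 0.909%, were near the background of 1.22%. edgeR called 1 higher and 0 lower among the mitotic partners, and 2 higher and 1 lower among the centriole genes. Of all peaks, it called 2.40% higher and 0.521% lower.

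Of 91 peaks near 10 stress checkpoint genes, 6 rose (6.59%) and 0 fell with DESeq2, against 1.22% and 0.167% of all peaks. At an unadjusted p under 0.05, 14 were higher and 4 lower, against 6.18% and 2.84% of all peaks. With edgeR 8 were higher and 0 lower, against 2.40% and 0.521%. The list was chosen with earlier results of these data known, and all 6 peaks that rose with DESeq2 were peaks of Cdkn1a. Cdkn1a encodes the cyclin-dependent kinase inhibitor p21, a p53 target like Plk2. Its 6 peaks lay 661 to 6672 bp into the gene, with log2 fold changes of 0.43 to 1.19. Its summed tags rose by a log2 fold change of 0.30 (SE 0.06, DESeq2 adjusted p = 4.32e-05). The 9 other genes of the list, among them Trp53, Mdm2 and Ccng1, had no sum past the test.

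Gsdmd and Gsdme, whose gasdermin products form membrane pores, had log2 fold changes in summed tags of -0.12 and -0.09 (DESeq2 adjusted p = 0.376 and 0.518). Plk5, the family member without a complete kinase domain, had 12 peaks, none of which passed (0 with DESeq2, 1 lower at an unadjusted p under 0.05, and 1 lower by edgeR). Its sum was 667.8, 626.1 and 694.8 after oil and 555.3, 568.9 and 621.3 after tamoxifen, values that did not overlap (log2 fold change -0.19, DESeq2 adjusted p = 0.233). Tamoxifen values lay below all oil values at 10.0% of single peaks, a share not counted for gene sums.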

How the data were processed

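ATAC-seq libraries of 3 oil and 3 tamoxifen samples were analysed. The authors aligned reads to mm10 with Bowtie2 and used HOMER to find peaks in each group, to merge both lists and to count tags, with versions not given in the sources used here. The deposited values are an estimated count per peak, in steps of 0.5 because each mate counts 0.5 tags, with at most 3 tags per position, which caps the highest peaks. Per the file headers, no normalisation was applied.

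Tags were rounded and fitted over all 175929 peaks with DESeq2 1.42.0 (R 4.3.3, Wald test, median-ratio size factors, Benjamini-Hochberg adjustment, two-sided). A peak passed at an adjusted p under 0.05. Tags of peaks within 100000 bp were also summed per gene and fitted over 19781 genes with their own size factors. Intervals are 95% for the fitted log2 fold change, from its DESeq2 SE, and reflect only variation between these libraries. edgeR 4.0.16 (robust quasi-likelihood) and 30 lines of alternatives were tried. Named in full were, per gene, the peak nearest the TSS, the peak with most tags and each peak with an unadjusted p under 0.05. Members, lists and this rule were chosen with earlier results of these data known.

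Sequences came from GRCm38.p6, the assembly behind mm10, and from RefSeq promoters of that assembly, in which all 4 genes were found. On 21 chromosomes compared, 0 peaks ended beyond the reference. Gene features came from GENCODE. A list of pyroptosis genes and 1 marker gene are not reported here in full. NF-kB and p53 motifs were searched by consensus on both strands.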

Additional observations from a re-analysis of the deposited data

How the results depend on the processing

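With 1 Plk peak past the test using all 6 libraries, the count stayed 1 with size factors from TMM, total tags in peaks or total mapped tags, with independent filtering off and with a distance limit of 50000 bp. The limit of a mean of at least 10 tags removed no peak. The count was 2 with edgeR and at an adjusted p under 0.1, and 0 with separate fits of distal and proximal peaks and with a fold change over 2. Over all peaks, edgeR called 5136 against 2448. In the separate fits, DESeq2 replaced the parametric dispersion trend by a local one in 1 of the parts.

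Leaving out 1 library gave 0 to 2 Plk peaks. The log2 fold change of the sum then ran from -0.15 to -0.09 for Plk1, from 0.25 to 0.35 for Plk2, from 0.02 to 0.14 for Plk3 and from -0.054 to 0.043 for Plk4, and that of the Plk4 +64 peak from -0.02 to 0.10. Calls over all peaks ran from 629 without tamoxifen replicate 3 to 6529 without tamoxifen replicate 4.

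The Plk2 sum kept its direction but lost the threshold with peaks within 3000 bp (0.24) or beyond (0.42). Plk4 turned sign near 0 with TMM (0.00), tags in peaks (0.006), mapped tags (0.03), edgeR (0.00) and peaks within 3000 bp (0.015).

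Libraries with the same number did not deviate together from their groups (r = -0.044 for number 1, 0.0508 for number 4). Only these numbers occurred in both groups, and the labels do not say whether libraries were paired, so pairing is not excluded. With a replicate block on these 4 libraries, 0 Plk peaks passed (52 of all peaks), and log2 fold changes were 0.40 for the Plk2 sum, which no longer passed (DESeq2 adjusted p = 1.0), 0.001 for the Plk4 sum and -0.001 for the Plk4 +64 peak. The causes were not tested.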
